A study of Homo sapiens with 6 samples.

Results

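The mitosis and spindle genes are a list of 48 genes that encode proteins which drive, build or monitor cell division. The list was made from their known roles, not from a threshold on these values, but with earlier results of these data known. The genes were found as the probe sets that the platform annotation assigns to exactly 1 gene symbol of that list. Each gene was read from the brightest of its probe sets, by the mean of the 6 arrays. All 48 were measured, of 19775 genes in all, through 98 probe sets. The cells were THP1, an established human monocytic leukaemia line, on Affymetrix U133 Plus 2.0 arrays with 1 array per sample. Per the labels, 3 samples were untreated and 3 were grown for 48 hours on a surface carrying Dll4-Fc, a fusion of Delta-like 4, which activates Notch receptors, with the Fc region of an antibody. The coating is given as 30 nM in the protocol and as 60 nM in the sample labels, and the control is called vehicle in the protocol and untreated in the sample labels, so neither is settled here. All samples come from 1 cell line in the same serum-containing medium, the labels name no surface coated with Fc alone, and nothing says that replicates were separate cultures, so the spread behind each p-value is that of these samples and may be technical. The comparison asks what Notch activation does in myeloid leukaemia cells.

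Cells enter mitosis when CDK1, bound to cyclins A and B, is activated by CDC25 phosphatases and freed from the inhibitory kinase WEE1. Condensin then compacts the chromosomes, kinetochores attach them to the spindle, and a checkpoint holds back the anaphase-promoting complex until every chromosome is attached. Most of these genes are transcribed in a burst in late interphase under the factors B-MYB and FOXM1, and are switched off in resting cells by a complex that reads a promoter motif called the CHR element. In growing cell lines their RNA is used as a measure of how many cells are dividing.

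The RNA of most mitosis and spindle genes was lower on Dll4-Fc, by small amounts. Of the 48 genes, 28 fell, 1 rose and 19 did not pass (limma, adjusted p below 0.05), while over all genes tested 15% were called lower and 11.6% higher. The median log2 difference (Dll4-Fc minus untreated) was -0.25 over the 48 genes and -0.01 over all genes. With cyclic loess in place of the deposited normalization it was -0.20 over the 48 genes and 0.01 over all genes, and 24 fell. Over all genes that setting called 2859 higher and 2466 lower, in place of 2298 and 2964. The falls that passed ran from -0.18 to -0.50 with a median of -0.32, and none was 2-fold. In 40 of the 48 genes (83.3%) every Dll4-Fc array lay below every untreated array, a pattern found in 23.5% of all genes. Only MKI67 and CDC25B had a positive difference, and that of MKI67 was -0.07 as the mean of its probe sets. In RNA from whole cultures, fewer cells in division and less of these RNAs per dividing cell cannot be told apart.

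**Figure D1:**
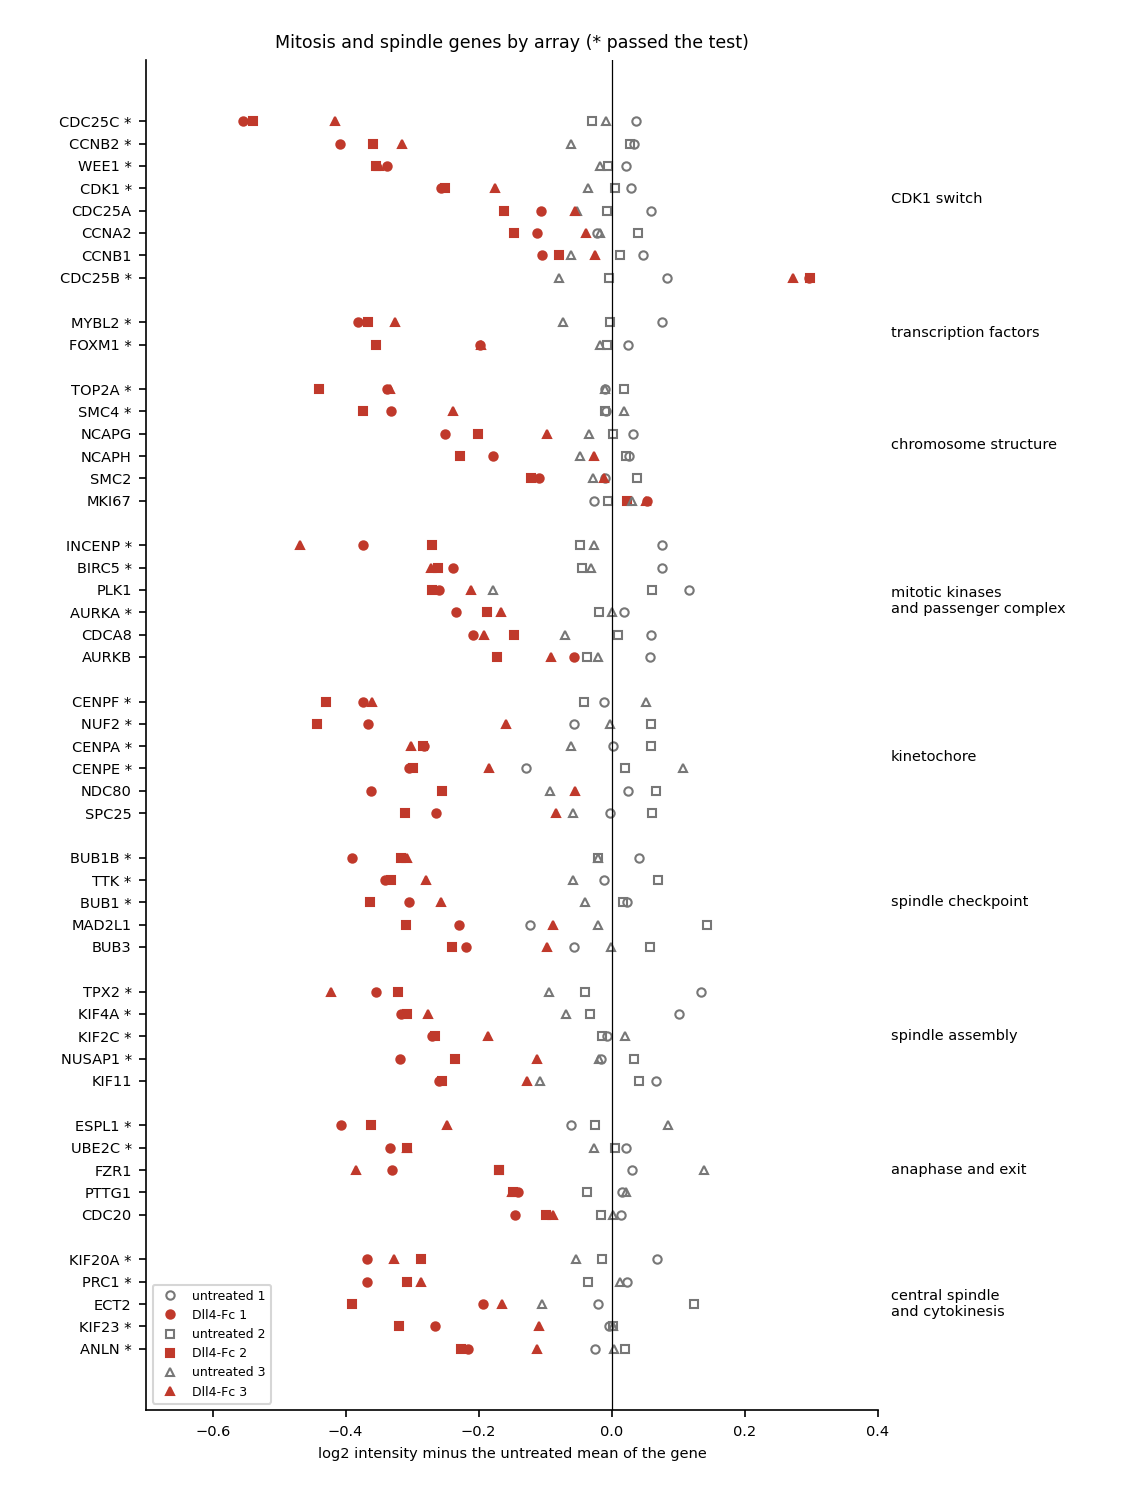
Log2 intensity of each of the 48 genes in each array, minus the mean of the 3 untreated arrays of that gene, grouped by role; open grey symbols are untreated and filled red symbols Dll4-Fc arrays, the symbol's shape is the replicate number, and an asterisk marks the 29 genes that passed the test. Dll4-Fc arrays lie to the left of 0 for all genes but MKI67 and CDC25B, and CDC25C lies farthest left.

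Over all genes, the correlation between arrays was 0.997 to 0.999 inside a group and 0.981 to 0.985 across groups. The 3' minus 5' log2 signal, a sign of RNA quality, was 0.72 ± 0.05 (SD, n = 3) for ACTB in untreated and 0.67 ± 0.03 in Dll4-Fc arrays, and 0.38 and 0.39 for GAPDH; its part in the results was not tested. Of 8 myeloid markers 7 were measured. Of these, 6 rose and 1 fell, where 11.6% and 15% of all genes did. The monocyte lysozyme gene LYZ rose from 11.87 to 13.87 and FLT3 from 9.46 to 9.73. SPI1, ITGAL, HLA-DRA and CD36 rose too. MPO, a granule enzyme of immature myeloid cells, fell from 6.65 to 5.86. The part of these differences in the mitosis results was not tested. Of 5 markers of other cell types 3 were measured and none passed. CD3E and EPCAM lay below the median probe set signal of 5.70 in both groups, and COL1A1 lay above it at 7.82 and 7.91.

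Many promoters of such genes hold a CHR element, a CCAAT box or both, though 17 of the 40 genes with a RefSeq promoter had no CHR element in the window and 11 no CCAAT box. The 6 below are those of the genes with the largest falls among the members whose window holds a CHR element before the start of transcription. Letters are RefSeq's, build GRCh38.p14, 5′ to 3′ on the strand of the gene, and each ends at the last base before an annotated start. Capitals mark CHR elements (TTTGAA or TTCGAA on either strand, so TTCAAA too) and CCAAT boxes (CCAAT or its reverse complement ATTGG), at which the factor NF-Y binds; no marked CHR element overlaps a marked CCAAT box. The printed windows lie at chr5:138331805-138331834 on the minus strand for CDC25C, chr11:62123761-62124010 on the plus strand for INCENP, chr17:40417897-40418146 on the minus strand for TOP2A, chr15:59104896-59105145 on the plus strand for CCNB2, chr12:53268049-53268298 on the plus strand for ESPL1 and chr15:40160819-40161068 on the plus strand for BUB1B. For CDC25C, which has several annotated starts close together, only the 30 bases before 1 of its starts are shown.
CDC25C: TTTGAAtggtcaacgcctgcggctgttgat
INCENP: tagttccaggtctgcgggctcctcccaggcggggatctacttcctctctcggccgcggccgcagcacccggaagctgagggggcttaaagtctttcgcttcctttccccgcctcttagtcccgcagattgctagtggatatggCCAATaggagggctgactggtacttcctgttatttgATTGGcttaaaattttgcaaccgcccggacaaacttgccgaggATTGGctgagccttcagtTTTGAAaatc
TOP2A: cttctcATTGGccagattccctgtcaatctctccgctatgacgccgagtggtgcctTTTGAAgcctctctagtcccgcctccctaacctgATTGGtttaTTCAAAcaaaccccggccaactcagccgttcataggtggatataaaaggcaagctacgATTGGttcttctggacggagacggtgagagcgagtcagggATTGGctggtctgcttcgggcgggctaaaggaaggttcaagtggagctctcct
CCNB2: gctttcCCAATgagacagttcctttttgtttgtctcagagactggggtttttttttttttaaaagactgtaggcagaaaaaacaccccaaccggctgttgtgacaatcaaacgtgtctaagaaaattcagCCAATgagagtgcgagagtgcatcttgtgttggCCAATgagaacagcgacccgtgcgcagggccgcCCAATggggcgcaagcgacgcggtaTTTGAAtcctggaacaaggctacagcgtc
ESPL1: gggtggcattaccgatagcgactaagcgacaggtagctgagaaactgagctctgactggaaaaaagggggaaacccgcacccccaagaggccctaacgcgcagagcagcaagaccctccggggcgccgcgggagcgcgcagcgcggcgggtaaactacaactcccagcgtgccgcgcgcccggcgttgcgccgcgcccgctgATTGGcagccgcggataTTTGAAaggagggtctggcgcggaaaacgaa
BUB1B: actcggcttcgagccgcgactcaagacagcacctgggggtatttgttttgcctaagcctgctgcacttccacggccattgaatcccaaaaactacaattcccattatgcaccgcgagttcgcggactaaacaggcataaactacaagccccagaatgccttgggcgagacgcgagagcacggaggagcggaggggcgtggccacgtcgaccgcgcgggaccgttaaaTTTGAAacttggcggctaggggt

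In CCNB2, ESPL1 and BUB1B the CHR element began 29, 31 and 23 bases before the start, in CDC25C 30 and in INCENP 10. TOP2A held 2, farther away at 194 and 151 bases. CCNB2 carried 4 CCAAT boxes and BUB1B none. Over the family, 40 of the 48 genes matched a RefSeq promoter, with 53 windows of 250 bases before a start between them, since some genes have several starts. A CHR element lay in 25 of the 53 windows (47.2%), against 14.3% of all 35116 windows of that length. Within the last 70 bases, a distance chosen after the positions were seen, it lay in 18 windows (34.0%) against 3.29%. A CCAAT box lay in 64.2% of the members' windows and in 32.0% of all, and the E2F-type motif GCGGGAA, on either strand, in 13.2% and 5.52%. Among genes of DNA replication, 4.35% of 46 windows held a CHR element, 60.9% a CCAAT box and 34.8% the E2F-type motif, and among other mitosis genes 24.3% of 136 windows held a CHR element and 50.7% a CCAAT box. The share with a CCAAT box was thus also above that of all windows in both of those lists. Other spellings of the CHR element, and sites after the start, were not searched. By motif, 13 of 23 genes with a CHR element in a window fell, with a median difference of -0.25. Of the 17 with none of the searched spellings there, 8 fell, with a median of -0.22, where 15% of all genes fell. For the CCAAT box the order was the other way, with 14 of 29 genes that hold one falling (median -0.23) and 7 of 11 that do not (median -0.26). Neither difference was tested. These are matches of letters, which say nothing of binding in these cells.

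Among the genes of the CDK1 switch, 4 of 8 fell, 1 rose and 3 did not pass, where 15% of all genes fell and 11.6% rose. CDC25C, a phosphatase that activates CDK1 at the entry into mitosis, read 8.80, 8.73 and 8.75 on the log2 scale in the untreated arrays and 8.20, 8.22 and 8.34 in the Dll4-Fc arrays. It fell by 0.50 ± 0.06 (standard error of the difference, n = 3 per group, 1.42-fold, adjusted p = 0.000798), the largest fall of the 48 genes, with a wide gap between the groups. Its only probe set not shared between transcripts was dim, at 4.64 in untreated cells, and gave a difference of -2.45e-05 (adjusted p = 0.999907, and 5.04e-05 to 0.999907 over the alternatives), while its other shared probe set gave -0.39 and passed as a single probe set (adjusted p = 0.0220). CCNB2, cyclin B2, read 11.53, 11.52 and 11.43 untreated and 11.08, 11.13 and 11.18 on Dll4-Fc, without overlap, and fell by 0.36 ± 0.06 (1.28-fold, adjusted p = 0.00307). Averaged over 3 probe sets, of which 1 is dim, it gave -0.10 (adjusted p = 0.203, and 1.28e-05 to 0.203 over the 14 alternatives). WEE1, the kinase that restrains CDK1, read 11.37, 11.34 and 11.33 untreated and 11.01, 10.99 and 10.99 on Dll4-Fc. It fell by 0.35 ± 0.05 (1.27-fold, adjusted p = 0.00183) and passed under all 14 alternatives, so an activator and an inhibitor of CDK1 were both lower.

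CDC25B, the phosphatase that starts CDK1 activation before CDC25C, was the 1 gene of the 48 that rose. It read 8.66, 8.57 and 8.50 in the untreated arrays and 8.87, 8.88 and 8.85 on Dll4-Fc. The groups did not overlap, and the difference was 0.29 ± 0.06 (22.2% higher, adjusted p = 0.0102), past the threshold in all 13 alternatives that measured it (0.00251 to 0.0443). It has 1 probe set, which is shared between transcripts and was left out where such probe sets were dropped. The third phosphatase of the family, CDC25A, which acts mainly at the entry into S phase, differed by -0.11 ± 0.06 (adjusted p = 0.237, 95% interval -0.24 to 0.03). Of the 3 CDC25 genes, 1 thus rose, 1 fell and 1 did not pass.

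CDK1 itself read 12.76, 12.74 and 12.70 untreated and 12.48, 12.48 and 12.56 on Dll4-Fc, and fell by 0.23 ± 0.05 (1.17-fold, adjusted p = 0.0176). Its 4 probe sets gave -0.23, -0.23, -0.25 and -0.25. The call was lost without untreated replicate 1 (-0.21, adjusted p = 0.0586), untreated replicate 2 (-0.22, 0.0642), Dll4-Fc replicate 1 (-0.21, 0.0750) and Dll4-Fc replicate 2 (-0.22, 0.0684), in a range of 7.35e-05 to 0.0751 over all alternatives. CCNB1, cyclin B1, the main partner of CDK1 in mitosis, read 11.97, 11.93 and 11.86 untreated and 11.81, 11.84 and 11.89 on Dll4-Fc. The groups overlapped, and the difference of -0.07 ± 0.06 (95% interval -0.20 to 0.06) did not pass (adjusted p = 0.444). A second probe set of CCNB1 gave -0.31 and passed as a single probe set (adjusted p = 0.0363). CCNA2, cyclin A2, which acts from S phase into early mitosis, differed by -0.10 ± 0.06 (adjusted p = 0.256).

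Both transcription factor genes of the family fell. MYBL2, which encodes B-MYB, the activator of late cell cycle promoters, read 10.75, 10.67 and 10.60 untreated and 10.29, 10.31 and 10.35 on Dll4-Fc. It fell by 0.36 ± 0.06 (1.28-fold, adjusted p = 0.00379), with no overlap, and passed under all 14 alternatives. FOXM1, the forkhead factor that follows B-MYB on those promoters, read 9.58, 9.55 and 9.54 untreated and 9.36, 9.21 and 9.36 on Dll4-Fc. It fell by 0.25 ± 0.06 (1.19-fold, adjusted p = 0.0224), and Dll4-Fc replicate 2 was the lowest array. The call was lost without untreated replicate 1 (-0.24, adjusted p = 0.0696), untreated replicate 2 (-0.25, 0.0676) or Dll4-Fc replicate 2 (-0.20, 0.0731), in a range of 0.00438 to 0.0731.

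Of 6 genes of chromosome structure, 2 fell and 4 did not pass. TOP2A, the topoisomerase that untangles sister chromatids, read 12.62, 12.65 and 12.62 untreated and 12.29, 12.19 and 12.30 on Dll4-Fc, with a spread within groups far below the gap. It fell by 0.37 ± 0.06 (1.29-fold, adjusted p = 0.00238) and passed under all 14 alternatives. SMC4, a core ATPase of condensin, read 12.85, 12.84 and 12.87 untreated and 12.52, 12.48 and 12.61 on Dll4-Fc. It fell by 0.31 ± 0.06 (1.24-fold, adjusted p = 0.00574), but averaged over 3 probe sets it gave -0.14 (adjusted p = 0.273, and 8.54e-06 to 0.273 over the alternatives). Its partner SMC2 differed by -0.08 ± 0.06 and the condensin subunit genes NCAPG and NCAPH by -0.18 ± 0.06 and -0.14 ± 0.07 (adjusted p = 0.370, 0.0621 and 0.176). A second probe set passed as lower for SMC2 (-0.25) and for NCAPG (-0.30).

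MKI67, whose protein Ki-67 coats mitotic chromosomes and is the standard stain for dividing cells, did not pass. It read 10.36, 10.39 and 10.42 in untreated arrays and 10.44, 10.41 and 10.44 on Dll4-Fc, with overlapping groups. The difference was 0.04 ± 0.05 (adjusted p = 0.614, 95% interval -0.07 to 0.16), and it passed in none of the 13 alternatives that measured it (0.227 to 0.788). Its 4 probe sets disagreed. They gave 0.04, 0.18, -0.22 and -0.26, and as single probe sets none of them passed (adjusted p = 0.730, 0.151, 0.0709 and 0.125).

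Of 6 genes of the mitotic kinases and the chromosomal passenger complex, 3 fell and 3 did not pass, where 15% of all genes fell. For all 6 the Dll4-Fc arrays lay below the untreated arrays without overlap, a pattern found in 23.5% of all genes. INCENP, the scaffold of the passenger complex, read 7.43, 7.31 and 7.33 untreated and 6.98, 7.09 and 6.89 on Dll4-Fc. It fell by 0.37 ± 0.07 (1.29-fold, adjusted p = 0.00698) and passed under all 14 alternatives. BIRC5, survivin, which docks that complex on centromeres, read 11.39, 11.27 and 11.28 untreated and 11.07, 11.05 and 11.04 on Dll4-Fc. It fell by 0.26 ± 0.06 (1.20-fold, adjusted p = 0.0130), and without shared probe sets it gave -0.10 (adjusted p = 0.392, and 0.000265 to 0.392 over the alternatives). AURKB, the kinase of the complex, was nearest to 0 of the 6, with 7.99, 7.90 and 7.92 untreated and 7.88, 7.76 and 7.85 on Dll4-Fc. Its difference of -0.11 ± 0.06 did not pass (adjusted p = 0.244, 95% interval -0.24 to 0.03). The remaining passenger gene, CDCA8 (borealin), differed by -0.18 ± 0.06 (adjusted p = 0.0532).

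AURKA, the kinase of spindle poles, read 11.90, 11.87 and 11.89 untreated and 11.65, 11.70 and 11.72 on Dll4-Fc, and fell by 0.20 ± 0.05 (1.15-fold, adjusted p = 0.0259). That fall was not held without untreated replicate 1 (-0.19, adjusted p = 0.0771), untreated replicate 2 (-0.21, 0.0719), or either of Dll4-Fc replicates 1 and 2 (-0.18, 0.105 and -0.20, 0.0771), in a range of 0.000411 to 0.338. Without shared probe sets the difference of AURKA was smaller, at -0.10 (adjusted p = 0.338), and averaged over its probe sets it was -0.16 (adjusted p = 0.0527). PLK1, the polo-like kinase that acts from entry to exit of mitosis, read 8.29, 8.23 and 8.00 untreated and 7.91, 7.90 and 7.96 on Dll4-Fc. Untreated replicate 3 lay close to the Dll4-Fc arrays, and the difference of -0.25 ± 0.08 did not pass (adjusted p = 0.0676).

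At the kinetochore, the protein platform on the centromere, 4 of 6 genes fell and 2 did not pass, where 15% of all genes fell. CENPF, a large coiled-coil protein of the outer kinetochore, read 11.21, 11.18 and 11.27 untreated and 10.84, 10.79 and 10.86 on Dll4-Fc, without overlap. It fell by 0.39 ± 0.05 (1.31-fold, adjusted p = 0.00179); its only unshared probe set, dim at 4.40 in untreated cells, gave -0.13 (adjusted p = 0.364, and 6.20e-06 to 0.364 over the alternatives). CENPA, the histone H3 variant that marks centromeres, read 9.57, 9.62 and 9.50 untreated and 9.28, 9.28 and 9.26 on Dll4-Fc. It fell by 0.29 ± 0.05 (1.22-fold, adjusted p = 0.00702), and the 3 Dll4-Fc arrays were nearly equal. NUF2, a rod of the microtubule-binding NDC80 complex, read 11.31, 11.42 and 11.36 untreated and 11.00, 10.92 and 11.20 on Dll4-Fc. It fell by 0.32 ± 0.08 (1.25-fold, adjusted p = 0.0248), with Dll4-Fc replicate 3 closest to the untreated arrays.

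The fall of NUF2 was not held without untreated replicate 2 (-0.29, adjusted p = 0.0859), untreated replicate 3 (-0.32, 0.0518), or either of Dll4-Fc replicates 1 and 2 (-0.30, 0.0910 and -0.26, 0.0824), in a range of 0.00109 to 0.0910. Its partners in the same complex did not pass: NDC80 differed by -0.22 ± 0.09 (adjusted p = 0.113) and SPC25 by -0.22 ± 0.07 (adjusted p = 0.0701). SPC25, which anchors the complex, read 10.34, 10.40 and 10.29 untreated and 10.08, 10.03 and 10.26 on Dll4-Fc. In NDC80, NUF2 and SPC25 alike, Dll4-Fc replicate 3 was the highest of the Dll4-Fc arrays. CENPE, a kinesin that carries chromosomes to the spindle equator, fell by 0.26 ± 0.08 (adjusted p = 0.0394). It did not pass without untreated replicate 2 (-0.25, adjusted p = 0.113), untreated replicate 3 (-0.21, 0.0840), or either of Dll4-Fc replicates 1 and 2 (-0.24, 0.130 and -0.24, 0.120), nor with cyclic loess (-0.20, 0.109), in a range of 0.00543 to 0.130.

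Of the 5 spindle checkpoint genes, whose products hold back anaphase while chromosomes are unattached, 3 fell and 2 did not pass. Among all genes 15% fell. BUB1B, the checkpoint subunit BubR1, read 11.36, 11.30 and 11.30 untreated and 10.93, 11.00 and 11.01 on Dll4-Fc, and fell by 0.34 ± 0.05 (1.26-fold, adjusted p = 0.00330). TTK, the kinase MPS1 that switches the checkpoint on, read 11.02, 11.10 and 10.97 untreated and 10.69, 10.70 and 10.75 on Dll4-Fc, and fell by 0.32 ± 0.06 (1.25-fold, adjusted p = 0.00564). Both passed under all 14 alternatives and showed no overlap. BUB1, the kinase that recruits BUBR1 to kinetochores, read 11.24, 11.23 and 11.17 untreated and 10.91, 10.85 and 10.96 on Dll4-Fc. It fell by 0.31 ± 0.06 (1.24-fold, adjusted p = 0.00557), but averaged over its 5 probe sets, of which several are dim, it gave -0.10 (adjusted p = 0.413, and 5.71e-05 to 0.413 over the alternatives). BUB3, the adaptor of both, read 12.76, 12.87 and 12.81 untreated and 12.60, 12.57 and 12.72 on Dll4-Fc. The difference of -0.19 ± 0.06 did not pass (adjusted p = 0.0695), while 3 of its other 5 probe sets passed as single probe sets (-0.33, -0.36 and -0.53). MAD2L1, the MAD2 protein that blocks CDC20, differed by -0.21 ± 0.09 (adjusted p = 0.135) with overlapping groups.

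Of the 5 spindle assembly genes, 4 fell and 1 did not pass, where 15% of all genes fell. TPX2, which activates AURKA and nucleates microtubules, read 10.85, 10.68 and 10.62 untreated and 10.36, 10.40 and 10.30 on Dll4-Fc. It fell by 0.37 ± 0.07 (1.29-fold, adjusted p = 0.00912), with untreated replicate 1 the highest array. KIF4A, a chromosome-bound kinesin, read 10.09, 9.95 and 9.92 untreated and 9.67, 9.68 and 9.71 on Dll4-Fc. It fell by 0.30 ± 0.06 (1.23-fold, adjusted p = 0.0103). Neither TPX2 nor KIF4A lost its call in any alternative that measured it. KIF2C, a kinesin that takes microtubules apart, read 11.55, 11.55 and 11.58 untreated and 11.29, 11.29 and 11.37 on Dll4-Fc. It fell by 0.24 ± 0.05 (1.18-fold, adjusted p = 0.0133), and not without Dll4-Fc replicate 1 (-0.23, adjusted p = 0.0610) or Dll4-Fc replicate 2 (-0.23, 0.0554), in a range of 0.000185 to 0.0610.

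KIF11, the motor that pushes spindle poles apart, read 10.72, 10.69 and 10.54 untreated and 10.39, 10.39 and 10.52 on Dll4-Fc. The difference of -0.21 ± 0.07 did not pass (adjusted p = 0.0625), with untreated replicate 3 and Dll4-Fc replicate 3 almost touching. NUSAP1, a microtubule-bundling protein, fell by 0.22 ± 0.07 (adjusted p = 0.0448), a call that no removal of a single array left in place other than that of Dll4-Fc replicate 3. It gave adjusted p = 0.0944, 0.135 and 0.0673 without untreated replicates 1, 2 and 3 and adjusted p = 0.151 and 0.125 without Dll4-Fc replicates 1 and 2. With cyclic loess (0.0514), median centring (0.0592) or no shared probe sets (0.0595) it did not pass either, in a range of 0.00145 to 0.151. A second probe set of NUSAP1 gave a larger difference of -0.42 (adjusted p = 0.00602 as a single probe set).

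Of the 5 genes of anaphase and mitotic exit, 2 fell and 3 did not pass. ESPL1, separase, the protease that cuts sister chromatids apart, read 9.45, 9.49 and 9.60 untreated and 9.11, 9.15 and 9.27 on Dll4-Fc. It fell by 0.34 ± 0.07 (1.26-fold, adjusted p = 0.00899), and its second probe set gave -0.36. UBE2C, the ubiquitin-conjugating enzyme of the anaphase-promoting complex, read 11.43, 11.41 and 11.38 untreated and 11.07, 11.10 and 11.10 on Dll4-Fc. It fell by 0.32 ± 0.05 (1.25-fold, adjusted p = 0.00302), and like ESPL1 passed under all 14 alternatives. CDC20, the activator of that complex in mitosis, read 13.37, 13.34 and 13.35 untreated and 13.21, 13.25 and 13.26 on Dll4-Fc. The groups did not overlap, but the difference of -0.11 ± 0.05 did not pass (adjusted p = 0.160, 95% interval -0.23 to 0.01). FZR1 (CDH1), which activates the complex after mitosis, differed by -0.29 ± 0.10 (adjusted p = 0.0585) with 1 shared reading, 7.65, at the edge of both groups. PTTG1, securin, the inhibitor of separase, differed by -0.15 ± 0.05 (adjusted p = 0.0712).

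Of the 5 genes of the central spindle and cytokinesis, 4 fell and 1 did not pass, where 15% of all genes fell. The Dll4-Fc arrays lay below the untreated arrays without overlap for all 5, as they did for 23.5% of all genes. KIF20A, a kinesin of the central spindle, read 10.57, 10.48 and 10.45 untreated and 10.13, 10.21 and 10.17 on Dll4-Fc, and fell by 0.33 ± 0.06 (1.25-fold, adjusted p = 0.00516). PRC1, which bundles the midzone microtubules, read 11.56, 11.51 and 11.55 untreated and 11.17, 11.23 and 11.25 on Dll4-Fc, and fell by 0.32 ± 0.05 (1.25-fold, adjusted p = 0.00385). Both passed in every alternative that measured them. KIF23, the kinesin of the centralspindlin complex, read 9.55, 9.55 and 9.55 untreated and 9.28, 9.23 and 9.44 on Dll4-Fc. It fell by 0.23 ± 0.07 (1.17-fold, adjusted p = 0.0396), with no measurable spread among the untreated arrays at 2 decimals.

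ANLN, anillin, the scaffold of the contractile ring, read 11.42, 11.47 and 11.45 untreated and 11.23, 11.22 and 11.34 on Dll4-Fc. It fell by 0.18 ± 0.06 (1.14-fold, adjusted p = 0.0470), the smallest fall that passed. Without untreated replicates 1, 2 and 3 the adjusted p was 0.0931, 0.107 and 0.0711 for KIF23 and 0.0874, 0.141 and 0.0759 for ANLN. Without Dll4-Fc replicates 1 and 2 it was 0.131 and 0.133 for KIF23 and 0.154 and 0.154 for ANLN. Over all alternatives it ran from 0.00968 to 0.939 and from 0.00271 to 0.154, and neither gene passed with cyclic loess (0.0767 and 0.0812) or median centring (0.0520 and 0.0734). KIF23 gave -0.02 without shared probe sets and -0.13 averaged over both probe sets. ECT2, which activates RHOA at the division plane, differed by -0.25 ± 0.09 (adjusted p = 0.0742). Averaged over its probe sets ECT2 gave -0.14 (adjusted p = 0.184), and without shared probe sets, on a dim one, 0.02 (adjusted p = 0.872).

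By step of mitosis, the median difference was -0.17 for the CDK1 switch, -0.16 for chromosome structure, -0.22 for the kinases and passenger complex, -0.28 for the kinetochore, -0.31 for the checkpoint, -0.24 for spindle assembly, -0.29 for anaphase and exit, -0.25 for the central spindle and cytokinesis and -0.30 for the pair of transcription factors. No difference between steps was tested. By array, the median over the 48 genes of the log2 signal minus the untreated mean was 0.02, 0.002 and -0.02 in untreated replicates 1, 2 and 3, and -0.27, -0.28 and -0.18 in Dll4-Fc replicates 1, 2 and 3. Dll4-Fc replicate 3 was the nearest to the untreated arrays. Of the 48 genes, 25 had their highest reading in untreated replicate 1, and 21 and 19 their lowest in Dll4-Fc replicates 1 and 2. Leaving out Dll4-Fc replicate 3 gave 32 falls, and leaving out Dll4-Fc replicate 1 or 2 gave 20 and 19. The share of all genes that fell was 13.7%, 9.36% and 10.1% in those 3 fits.

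**Figure D2:**
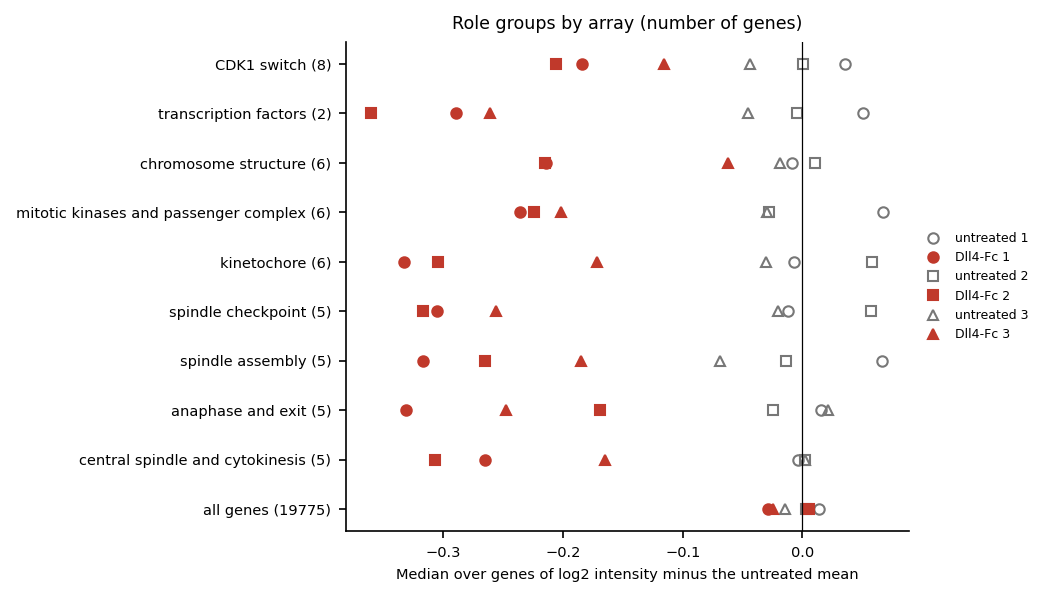
For each role group, the median over its genes of log2 intensity minus the untreated mean, in each array (open grey, untreated; filled red, Dll4-Fc; the shape is the replicate number), with all 19775 genes in the last row. In every role group the 3 Dll4-Fc arrays lie below the 3 untreated arrays, and Dll4-Fc replicate 3 is closest to them in chromosome structure, at -0.06; over all genes the 6 arrays lie between -0.03 and 0.01.

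Every one of the 48 genes lay above the median probe set signal, and genes with stronger signals were called more often in both directions. Of the 4944 genes at or above the 75th percentile of signal, 24.9% fell, 18.9% rose and their median difference was -0.04. The 42 members among them included 26 that fell and had a median of -0.24. With cyclic loess the figures were 20.8% and 0.01 for those genes and 22 and -0.20 for the 42 members. Within the 48 genes, signal and difference were only weakly related (Spearman rho = 0.11 over 48 genes measured on the same 6 arrays).

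**Figure D3:**
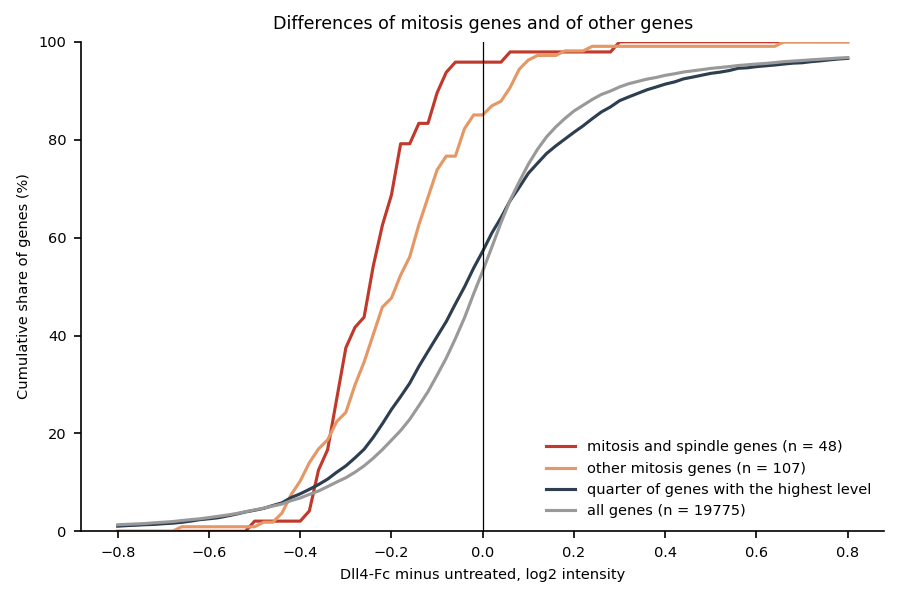
Cumulative share of genes, in percent, whose difference between Dll4-Fc and untreated (log2, x axis) is at or below a given value, for the 48 genes, 107 other mitosis genes, the 4944 genes at or above the 75th percentile of signal and all 19775 genes, with the ends of the latter 2 curves beyond the axis. The curves of both mitosis lists lie to the left of the others through the middle of the range, with medians of -0.25 and -0.19.

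Probe sets that were not used for a gene's value mostly ran the same way. Of 98 probe sets of the 48 genes, 89 had a negative difference, 41 passed as lower and 1 as higher when all 54675 probe sets were tested, where 9.25% of probe sets were lower. Among the 50 that were not used, 43 were negative, 18 passed as lower and 0 as higher. Of the 40 of these above the median probe set signal, 38 were negative, the exceptions being 1 each of MKI67 and SMC4. For 6 genes that did not pass (CCNB1, SMC2, NCAPG, BUB3, MAD2L1 and FZR1) an unused probe set passed as lower, so their position among the genes without a call rests on the choice of probe set.

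**Figure D4:**
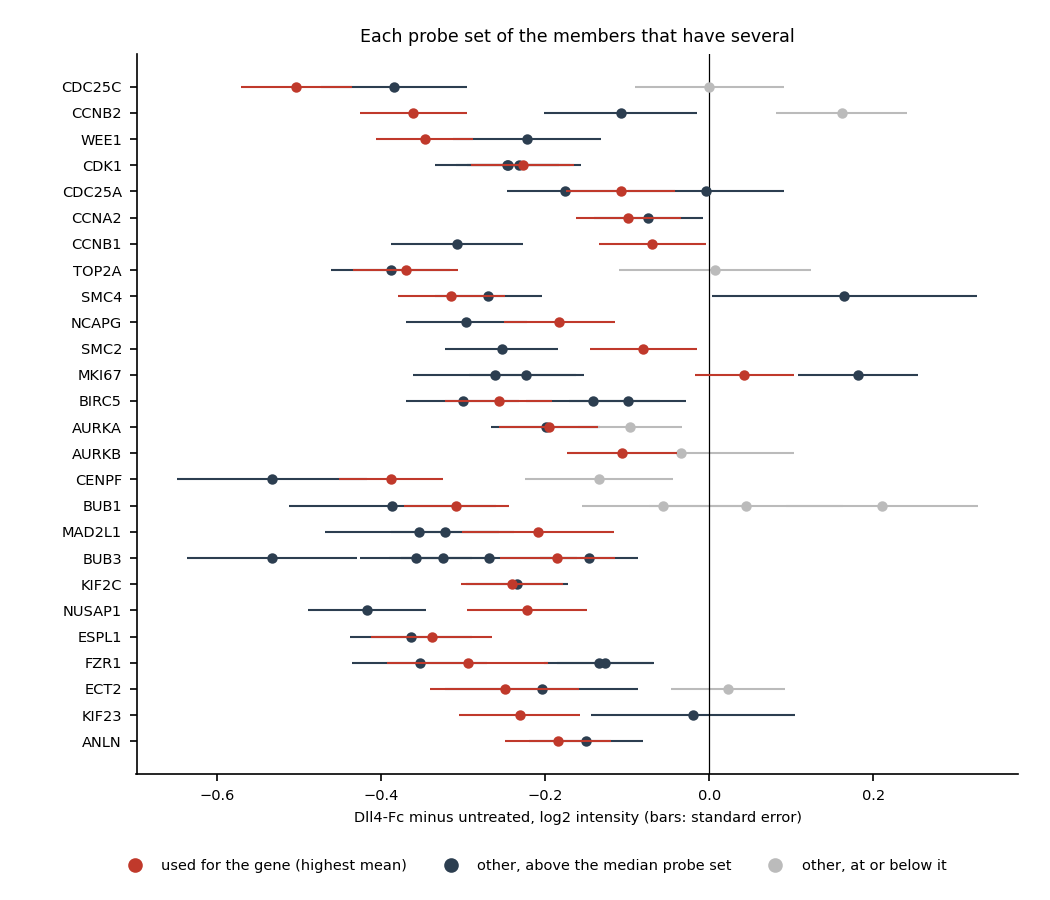
Difference between Dll4-Fc and untreated (log2 intensity, with its standard error) for every probe set of the 26 genes that have several; red is the probe set used for the gene, dark blue another above the median probe set signal, grey another at or below it. Most points lie left of 0, CDK1's 4 probe sets coincide between -0.25 and -0.23, and MKI67's spread from -0.26 to 0.18.

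A further 110 genes of mitosis, listed by the same steps, were also lower in the main. Of 107 measured, 49 fell (45.8%), 2 rose and 56 did not pass, with a median of -0.19. The count of falls was 30 without untreated replicate 2 or Dll4-Fc replicate 2 and 31 without Dll4-Fc replicate 1. Among other spindle assembly genes 13 of 17 fell, led by ASPM, a spindle pole protein (-0.44 ± 0.06, adjusted p = 0.00112), and the chromosome-arm kinesin KIF22 (-0.44 ± 0.09, adjusted p = 0.00782). Of other subunits and regulators of the anaphase-promoting complex and mitotic exit 3 of 16 fell, and of other spindle checkpoint genes 1 of 7, shares near the 15% over all genes. These shares were not tested against each other. The largest fall was that of CDC14B, a phosphatase, which read 9.48, 9.47 and 9.30 untreated and 8.75, 8.68 and 8.80 on Dll4-Fc (-0.67 ± 0.07, adjusted p = 0.000375). CCNB1IP1, a ubiquitin ligase that binds cyclin B, fell by 0.49 ± 0.05 and PMF1, a subunit of the kinetochore's MIS12 complex, by 0.43 ± 0.07. Other kinetochore genes fell in 14 of 25 cases.

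The 2 that rose were MASTL and CEP55. MASTL, the Greatwall kinase, which keeps a phosphatase opposed to CDK1 switched off, read 9.15, 9.16 and 9.15 untreated and 9.88, 9.73 and 9.79 on Dll4-Fc. It rose by 0.65 ± 0.06 (1.57-fold, adjusted p = 0.000192), a larger difference than that of any of the 48 genes. CEP55, needed for the final cut between daughter cells, read 10.78, 10.84 and 10.77 untreated and 11.00, 11.02 and 11.05 on Dll4-Fc and rose by 0.23 ± 0.05 (1.17-fold, adjusted p = 0.0162). Each has 1 probe set. Their direction was opposite to that of most mitosis genes, as was that of CDC25B.

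Beside the mitosis genes, 18 of 40 measured genes of DNA replication and S phase fell (45%) and 0 rose at an adjusted p under 0.05 in limma. Over all genes 15% fell and 11.6% rose. The replication genes had a median of -0.17, and the largest falls were those of the primase gene PRIM1 (-0.46 ± 0.06), the thymidine kinase gene TK1 (-0.43 ± 0.06) and the DNA ligase gene LIG1 (-0.39 ± 0.06). Whether the mitosis genes differed from these was not tested. Of 10 measured genes listed as CDK inhibitors or as linked to cell cycle arrest, 3 rose and 6 fell, where 11.6% and 15% of all genes did. CDKN1A, the CDK inhibitor p21, rose by 1.80 ± 0.06, from 8.34 to 10.14, BTG1 by 1.07 ± 0.06 and GADD45A by 0.55 ± 0.05. Those that fell were CDKN2D (-0.52), CCNG2 (-0.47), CDKN1B (-0.44), CDKN3 (-0.35), RBL2 (-0.28) and CCNG1 (-0.23). The difference of p21 was of opposite sign to those of CDK1 (-0.23) and cyclin B2 (-0.36), and 53.2% of all genes had a negative difference. The cyclin genes CCNB1 (-0.07) and CCNA2 (-0.10) did not pass. The relation of p21 to any of these genes was not tested.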

How the data were processed

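The authors deposited linear intensities, 1 for each probe set of each array. RMA is named for them, per the submitters' processing notes, with its version and settings not given in the sources used here. Values scaled between arrays cannot show a change in the whole RNA content of a cell. Intensities were log2 transformed here. Genes were named from the platform annotation, in which 41097 of 54675 probe sets had exactly 1 gene symbol; a current gene table (GRCh38.p14) changed 0 symbols. Groups were compared over all 19775 genes with limma 3.58.1 in R 4.3.3 (lmFit, eBayes, 4 residual degrees of freedom, 2-sided, Benjamini-Hochberg over all genes, threshold 0.05). Simulated data were used to test the code. With 3 arrays per group, precision was limited by their number; the 48 genes had a median standard error of 0.06. A shared probe set is one whose name ends in _s_at, _x_at or _a_at, and a dim one lies at or below the median probe set. The members and lists were chosen with earlier results of these data known. Per role, up to 3 genes with the largest difference that passed were named with a value in each array. So were each that rose and the one nearest to 0, besides CDK1 and PLK1, chosen after their values were seen. Of the other mitosis genes up to 5 falls and 5 rises were named, with array values for CDC14B, MASTL and CEP55 only. Of the comparison lists up to 3 genes were named, without array values, besides the cell type markers and those of the inhibitor and arrest list that fell. Promoters came from RefSeq. The 14 alternatives are given in the closing section.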

Additional observations from a re-analysis of the deposited data

How the results depend on the processing

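Under the 14 alternatives between 19 and 40 of the 48 genes fell, and 1 rose in 13 of them; without shared probe sets 0 of the 38 genes still measured rose, because CDC25B has no unshared probe set, and 21 fell. In no alternative did a gene that passed, in the original fit or in that alternative, change its direction, and 13 of the 28 falls passed in every alternative that measured them. A trended and robust variance prior gave 40 falls, array weights 38 and the removal of dim genes 37, while the share of all genes tested that fell also went up, from 15% to 18.2%, 20.9% and 25.6%. The median difference was -0.20 with cyclic loess. Among the 107 other mitosis genes, 31 fell and 1 rose with the replicate number as a block, and between 30 and 54 fell and between 1 and 2 rose when 1 array was left out; 3 rose with the trended prior.

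With the replicate block 20 of the 48 genes fell and 1 rose; CDK1, FOXM1, AURKA, NUF2, KIF2C, NUSAP1, KIF23 and ANLN did not pass in that fit (adjusted p = 0.0522 to 0.124). Deviations of same-numbered arrays correlated at 0.01, -0.21 and -0.15. Arrays of different number were not compared, so whether the numbers mark samples handled together is not settled. Groups of 3 arrays cannot be screened for single outlying arrays, and the probe sets that disagree within MKI67, CCNB1, KIF23 and ECT2 limit what can be said of those genes.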
